A study of Mus musculus with 2 samples.

Results

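Potassium channels were examined in total palate RNA from BALB/c mice late in gestation (E18.5, counted in embryonic days), hybridised to Affymetrix expression arrays. The genes were chosen by symbol: Kcn followed by a letter and a number, or Kcnip, Kcnab, Kcnmb or Kcnq with a number, on probe sets annotated to a single gene. This gave 79 of 18193 genes, read by 153 of 45101 probe sets. The series compares wild-type palate, on 1 array, with palate, again on 1 array, null for Myf5 as well as MyoD (Myf5-/-:MyoD-/-, MyoD being the gene Myod1), on the same BALB/c background. Myf5 and MyoD are the transcription factors that commit cells to skeletal muscle. Whether fetuses were pooled, and which part of each targeted gene is missing, is not in the labels. Because neither genotype has a replicate, no test between them could be run, and every value below describes these 2 arrays.

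The label of the second array could not be checked on the targeted genes. The brighter Myod1 probe set had scaled signals of 1938 in wild type and 1663 on the second array, and the Myf5 probe set had 517 and 531. It is called the null-labelled array below. Of 8 markers of palate tissue 6 were measured, with a median log2 ratio of -0.73. Lower on the second array were the epithelial keratins Krt4 (19880.1 and 4181, 4.75-fold) and Krt13 (7146 and 2358, 3.03-fold) and the mesenchymal factor Msx1 (9515 and 2561, 3.71-fold). On their brightest probe sets the patterning genes Pax9 and Shox2 were within 1.14-fold, and the collagen gene Col1a1 was 1.67-fold higher. A second measured Shox2 probe set had 1073 and 346, 3.10-fold lower. The part of these tissues in the values of potassium channels was not tested. On both arrays the palate regulators Osr2 and Tbx22 were below the measured level.

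Potassium channels set the resting potential of excitable cells and end the action potential. Voltage-gated (Kv) channels are built from pore-forming alpha subunits with cytoplasmic beta or Kcnip partners. Inward rectifiers and tandem-pore leak channels hold the membrane near rest, and calcium-activated channels couple it to calcium. Many Kv subunits are typical of neurons. ATP-sensitive and strong inward rectifiers serve muscle, and other subunits serve epithelia, glia and blood cells. The genes were placed by this textbook knowledge into 44 neuronal, 14 muscle and 21 widespread subunits, the last group holding all those typical of neither neurons nor muscle. Several genes are used by more than 1 of these tissues.

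Most of the family was dim. A gene was read from its brightest probe set and counted as measured where the brighter array reached 658, the 60th percentile of scaled signals. Signals below 287, the 40th percentile, were set to that floor. By this rule 28 of 79 potassium channel genes (35.4%) were measured, against 11238 of 18193 genes (61.8%) on the arrays. They were 14 neuronal, 7 muscle and 7 widespread subunits. Of the 28 genes, 16 reached the measured level on both arrays, 9 on the null-labelled array alone and 3 on the wild-type array alone. A gene of the last 2 kinds entered through the array on which it was brighter, so the counts below describe the 28 genes and not the family.

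**Figure D1:**
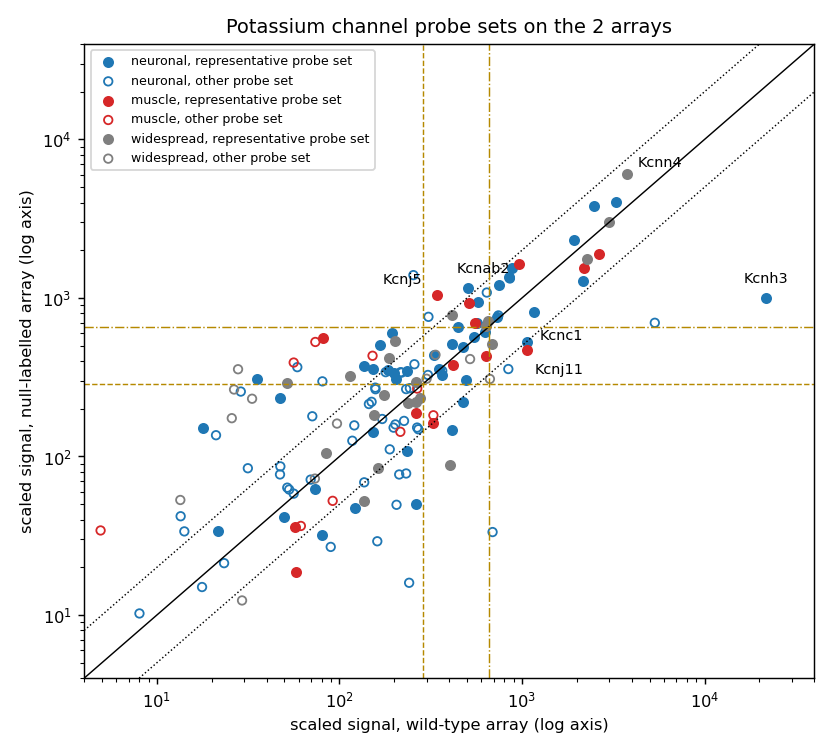
Scaled signal of each of the 153 potassium channel probe sets on the wild-type array (x axis, log scale) and on the null-labelled array (y axis, log scale); colours give the subunit group and filled points the probe set that represents its gene. The solid line marks equal signals, dotted lines 2-fold, dashed lines the floor of 287 and dash-dotted lines the measured level of 658; Kcnh3 lies far below the diagonal at 21598 and 1001.

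Few of the 28 measured genes differed by 2-fold, and they went both ways. On the null-labelled array, 3 genes were at least 2-fold lower, where 4.22% of all measured genes were (474 of 11238), and 2 genes were at least 2-fold higher, where 3.51% were (394 of 11238). The lower genes were Kcnh3, Kcnc1 and Kcnj11, and the higher genes were Kcnj5 and Kcnab2. The other 23 lay within 2-fold. Of the genes past 2-fold only Kcnh3 was measured on both arrays. Kcnc1 and Kcnj11 entered through the wild-type array, and Kcnj5 and Kcnab2 through the null-labelled array. Among the 16 genes measured on both arrays, 1 was at least 2-fold lower and 0 were higher. Of all 9975 genes measured on both arrays, 215 were at least 2-fold lower and 230 higher. Above a log2 ratio of 0 lay 19 of the 28 genes, against 56.3% of all measured genes, but 14 of 29 with the arrays set to the median ratio of 14 reference genes. In a tissue RNA sample, fewer cells of a type and less RNA per cell cannot be told apart. With the floor at the 60th percentile, Kcnh3 alone was past 2-fold. The counts depended on the scaling of the arrays: with each array set to the median signal of these reference genes, 1 potassium channel gene was lower and 5 were higher. As scaled here 10 of the 14 reference genes lay above 0 (median log2 ratio 0.14), and 13 of 14 (0.36) with their median signals set equal. That scaling moved the median of all genes by 0.23, and among all genes past 2-fold the share that were lower was 54.6% as scaled here and 25.3% there. It was 65.0% for signals as deposited and 74.5% with the arrays set to the median ratio of the reference genes.

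The median log2 ratio of the 28 genes was 0.27, with 0.07 for all measured genes, and it was -0.01 with the arrays set to the median ratio of the reference genes, which moved the median of all genes by -0.15. Relative to the median of all genes, the potassium channel median was 0.20 higher as scaled here and 0.08 higher under that scaling. For the 16 potassium channel genes that were measured on both arrays the median was 0.16, with 10 genes above 0 and 6 below. Over all 9975 genes measured on both arrays it was 0.07, with 5730 above 0 and 4245 below. For all 79 potassium channel genes, with dim signals at the floor, it was 0.00.

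**Figure D2:**
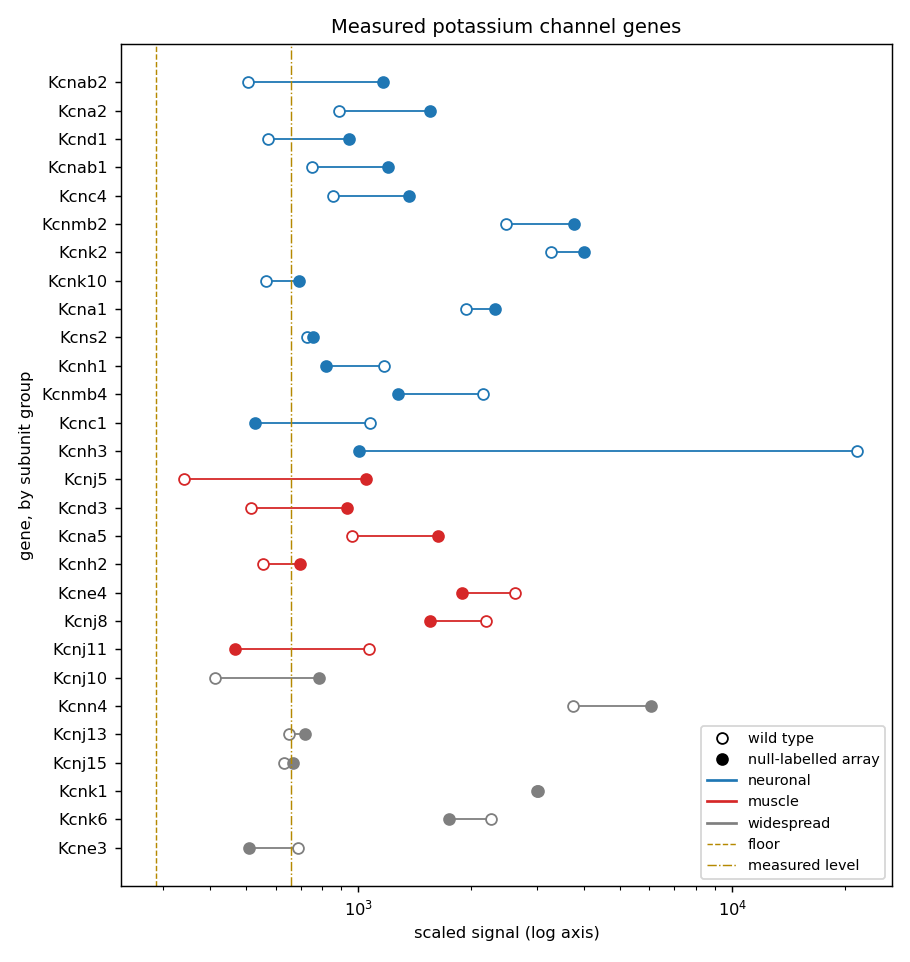
Scaled signal (x axis, log scale) of the 28 measured potassium channel genes (y axis), with open circles for wild type, filled circles for the null-labelled array, and colours for the neuronal, muscle and widespread groups. In the neuronal group 10 of 14 genes had the higher signal on the null-labelled array (8 of 14 with the arrays set to the median ratio of the reference genes), and the longest line, that of Kcnh3, runs the other way; relative to all genes the family's median differed by 0.08 to 0.23 under the 5 scalings used.

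Among voltage-gated alpha subunits (Kcna to Kcnd), 7 of 13 genes were measured and 6 of the 7 lay above 0, with a median log2 ratio of 0.73. Over all measured genes 56.3% lay above 0. Of the 7 genes, 4 were measured on both arrays. Kcnd1 and Kcnd3 entered through the null-labelled array alone and Kcnc1 through the wild-type array alone, so the filter fixed their direction. Kcna2, an axonal delayed rectifier, had signals of 887 in wild type and 1556 on the null-labelled array, 1.75-fold higher. A second measured probe set of Kcna2 gave 254 and 1393, at least 4.86-fold higher, where "at least" marks a fold against the floor. Its remaining probe sets were under the floor on both arrays. Kcna1, which assembles with Kcna2 in axons, had signals of 1936 and 2317 (1.20-fold higher). Its other measured probe sets gave 642 and 1082, and 859 and 1327. All 3 measured probe sets of Kcna1 and both of Kcna2 thus had the higher signal on the null-labelled array.

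Kcnd1, a subunit of the rapidly inactivating A-type current, had signals of 571 and 946. Kcnc4, a channel activated at high voltage, had 853 and 1363. Kcna5, a delayed rectifier of heart and smooth muscle, went from 963 to 1627, and Kcnd3, the A-type subunit of heart and neurons, from 515 to 929. These 4 genes were 1.60-fold to 1.81-fold higher, each by 1 measured probe set. A dimmer Kcnd3 probe set had 327 in wild type and was under the floor on the null-labelled array.

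Kcnc1, a channel of fast-spiking neurons, was the alpha subunit of this class with the lower signal, 1071 in wild type and 529.9 on the null-labelled array, 2.02-fold. The other 3 probe sets of Kcnc1 had 216 and 340.3, 258 and 382, and 158 and 266. All 3 were below the measured level, and their signals were higher on the null-labelled array. The lower value of Kcnc1 therefore rests on 1 probe set of 4.

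Partners of these alpha subunits were also on the arrays. Kcnab2, a beta subunit that binds Kcna channels, had signals of 505 in wild type and 1162 on the null-labelled array, 2.30-fold higher, and its second probe set was under the floor on both. Kcnab1, of the same kind, had 749 and 1201. Kcns2, a silent subunit that modifies other Kv channels, had 729.9 and 756. Of the Kcnip calcium sensors that partner Kcnd channels, none was measured. Kcnip2 had 81.3 and 563, and a second probe set 73.8 and 528. The folds were at least 1.96 and at least 1.84, just short of the measured level. Kcnip3 went the other way, with 496 and 302, 1.64-fold lower. Kcnip4 had 200 and 335, and Kcnip1 and the beta subunit Kcnab3 were under the floor on both arrays. Both measured beta subunits and the brighter pair of Kcnip2 probe sets had their higher signals on the null-labelled array, as had 6 of the 7 measured alpha subunits. Kcnab2 reached the measured level on that array alone.

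The EAG family held the largest difference among the 28 genes and the widest spread between probe sets among the 6 genes with several measured ones. Kcnh3, a channel of the forebrain, had signals of 21598 in wild type and 1001 on the null-labelled array, 21.6-fold lower. A second probe set, of a type that may cross-hybridise, gave 5340.1 and 697, and the third gave 690.0 and 33.4. The fourth went the other way, with 307 and 760.3, 2.47-fold higher. The log2 ratios of Kcnh3 thus ran from -4.43 to 1.31 between probe sets annotated to the same gene, whereas over all genes the pooled SD between measured probe sets of a gene was 0.51 (10190 probe sets of 4030 genes). Kcnh1, the founding member of the EAG channels, had 1170.5 and 818, and its second probe set 842 and 356, so both were lower. Kcnh2, the ERG channel of heart, had 555 and 699.7.

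**Figure D3:**
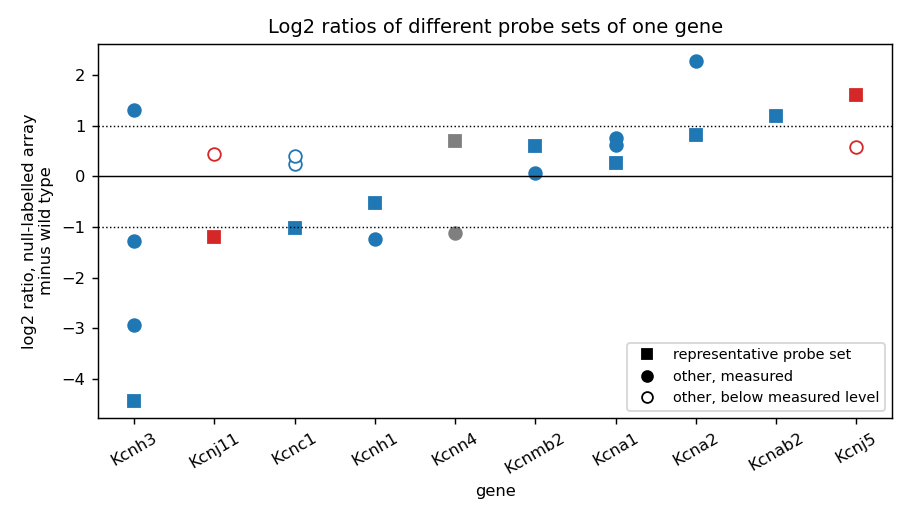
Log2 ratio (y axis, null-labelled array minus wild type) of each probe set with a signal above the floor, for the 10 potassium channel genes (x axis) with several measured probe sets or a representative probe set past 2-fold. Blue, red and grey mark neuronal, muscle and widespread subunits, squares are the probe sets that represent the gene, dotted lines mark 2-fold, and values with 1 array under the floor are bounds; Kcnh3, Kcnn4, Kcnj11 and Kcnc1 each have points on both sides of 0.

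No KCNQ channel was measured. These channels carry the M current that limits repetitive firing in neurons, and Kcnq1 serves heart and epithelia. Kcnq3 had signals of 195 in wild type and 602 on the null-labelled array, at least 2.10-fold higher, and was the 1 gene of the 51 below the measured level that passed 2-fold. Over all genes, 86 of the 6955 below the measured level did. The second Kcnq3 probe set was under the floor on both arrays, with 189 and 111. Kcnq5 had 444 and 655, just below the measured level of 658. Kcnq1 had 201 and 537.

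Among calcium-activated channels the large-conductance (BK) channel is formed by Kcnma1, which the symbol rule leaves out, with Kcnmb subunits that shift its gating. Kcnma1 had signals of 1439.8 in wild type and 3514 on the null-labelled array (2.44-fold higher), and 938 and 682 on its other measured probe set. The beta subunit Kcnmb2 had 2475 and 3779, and 742 and 776 on its second probe set. Kcnmb4, the beta subunit typical of neurons, had 2158 and 1275, 1.69-fold lower, on its only probe set. The BK subunits therefore did not share a direction. Kcnmb1, the smooth muscle beta subunit, was below the measured level, with 421 and 380.1.

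Kcnn4, the intermediate-conductance channel of red cells, lymphocytes and epithelia, had signals of 3749 in wild type and 6071 on the null-labelled array, 1.62-fold higher. Its second probe set gave 667 and 308, 2.16-fold lower. The mean over these probe sets was a log2 ratio of -0.21, so the direction of Kcnn4 differs with the probe set used. The small-conductance channels Kcnn1, Kcnn2 and Kcnn3 were all below the measured level.

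Inward rectifiers held both a lower and a higher muscle subunit. Kcnj11, the pore of the ATP-sensitive channel of skeletal muscle, had signals of 1069 in wild type and 469 on the null-labelled array, 2.28-fold lower. Its second probe set had 56.2 in wild type and 391 on the null-labelled array, at least 1.36-fold higher. Kcnj8, the pore of the vascular ATP-sensitive channel, had 2200 and 1553 (1.42-fold lower). The sulfonylurea receptor subunit that partners it, Abcc9, had 7148 and 7005. Abcc8, the receptor of endocrine cells and neurons, was below the measured level.

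Kcnj5, a G protein-gated rectifier of the heart, had the highest ratio of the 28 measured genes, each read from its brightest probe set, with signals of 342 in wild type and 1046 on the null-labelled array (3.06-fold higher). Its second probe set had 152 and 432, at least 1.51-fold higher. Both Kcnj5 probe sets had the higher signal on the same array. Kcnj3, which assembles with Kcnj5, was below the measured level at 627 and 610.1. Kcnj2, a strong inward rectifier of muscle whose loss causes cleft palate in mice, was under the floor on both arrays, with 56.8 and 35.7, and Kcnj12, another strong rectifier of muscle, with 262 and 189. Kcna7, a channel of skeletal muscle, had 634 and 433, just below the measured level.

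Of 5 widespread inward rectifiers 3 were measured, all on the null-labelled array alone, so the filter fixed their ratios above 0. Kcnj10, the rectifier of glia, had signals of 414 in wild type and 784 on the null-labelled array, 1.90-fold higher. Kcnj13, of transporting epithelia, had 654 and 720.0, and Kcnj15 had 633 and 668. The other Kcnj15 probe sets, below the measured level, had 336 and 438, and 300 and 309. In signals as deposited the last pair was 308 and 301. Below the measured level were Kcnj16, with 186 and 415, and Kcnj1, under the floor on both arrays.

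Tandem-pore leak channels lay close to equal signals on the arrays. Kcnk2, a mechanically gated leak channel, had 3278 in wild type and 4017 on the null-labelled array. Its relative Kcnk10 had 565 and 691, and reached the measured level on the null-labelled array alone. Kcnk1 had 3012 and 3018, and Kcnk6 had 2261 and 1749.7. All 4 measured members of this class differed by less than the pooled SD of 0.51 between probe sets of a gene. Their log2 ratios ran from -0.37 to 0.29. The other 8 genes of the class, among them Kcnk3 and Kcnk5, were below the measured level. The auxiliary subunits Kcne3, a partner of Kcnq1 in epithelia, and Kcne4 had 688 and 511, and 2626 and 1892, both lower on the null-labelled array. Kcne3 reached the measured level on the wild-type array alone, so the filter fixed its direction.

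Grouped by tissue, each subunit group had genes on both sides of 0. Neuronal subunits had a median log2 ratio of 0.29, with 10 of 14 above 0 (8 of 14 with the arrays set to the median ratio of the reference genes), 2 past 2-fold below 0 and 1 past it above, and a range from -4.43 to 1.20. Muscle subunits had a median of 0.34, which was -0.21 under that scaling, with 4 of 7 above 0, 1 lower and 1 higher by 2-fold, and a range from -1.19 to 1.61. Widespread subunits had a median of 0.08, which was -0.07 under that scaling and -0.0044 for signals as deposited, with 5 of 7 above 0 (2 of 7 under that scaling) and none past 2-fold. The difference between the groups was not tested, since the design has no replicates.

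The measured muscle subunits lay on both sides of 0, unlike the skeletal muscle markers. All 12 of 12 measured skeletal muscle markers lay below 0, with a median log2 ratio of -0.95 and scaled signals that summed to 203333 on the wild-type and 110358 on the null-labelled array; none was at 0 signal. Of the measured muscle subunits, Kcnj5, Kcnd3, Kcna5 and Kcnh2 were above 0, and Kcnj11, Kcnj8 and Kcne4 were below 0. Kcnj5, Kcnd3 and Kcnh2 reached the measured level on the null-labelled array alone, and Kcnj11 and the skeletal muscle marker Des on the wild-type array alone. Kcna7, a skeletal muscle channel below the measured level, also had the lower signal on the null-labelled array, with 634 and 433. Smooth muscle markers had 3 of 6 genes measured, all below 0 here and 2 of 3 with the arrays set to the median signal of the reference genes. The part of these markers in the values of the muscle subunits was not tested.

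**Figure D4:**
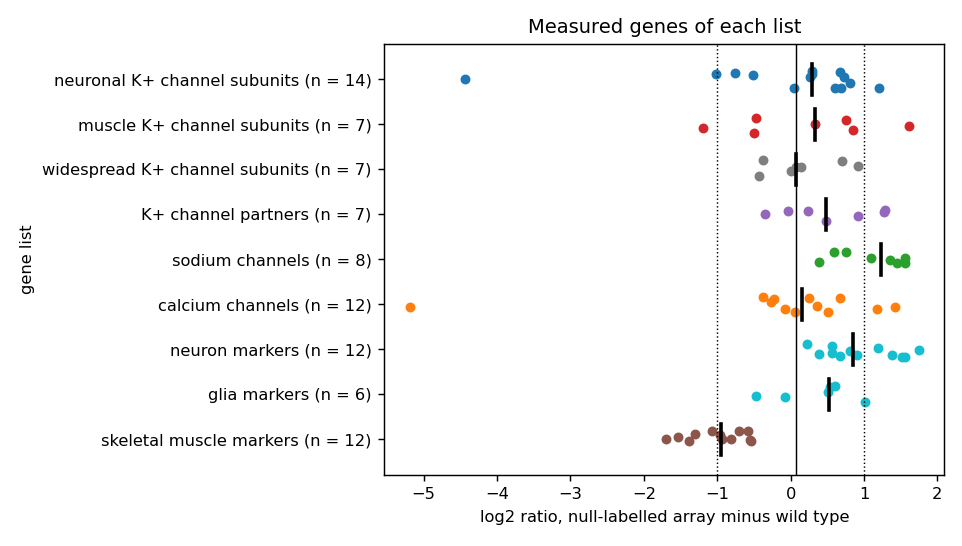
Log2 ratio (x axis, null-labelled array minus wild type) of each measured gene in each list (y axis); thick bars are list medians, the thin line is the median of all measured genes (0.07) and dotted lines mark 2-fold. Potassium channel groups spread to both sides of the line, whereas all 8 sodium channel genes lie above 0 and all 12 skeletal muscle markers below. Of these, 2 sodium channel genes were measured on the null-labelled array alone and 1 muscle marker on the wild-type array alone.

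Neuron markers were higher on the same array as most neuronal subunits. All 12 of 12 lay above 0, with a median log2 ratio of 0.86, 5 at least 2-fold higher, and scaled signals that summed to 62801 on the wild-type and 133966 on the null-labelled array. None was at 0 signal; the vesicle fusion gene Snap25 had 1881 and 5529. Of the 6 glia markers measured 4 lay above 0, with a median of 0.52 and summed signals of 31400.1 and 44663. Sox10 and Erbb3 were below 0. The largest difference in signal was that of Fabp7, with 9752 and 19748. Measured probe sets of Mbp ran from -0.74 to 0.51, so its direction differs with the probe set used. Kcnab2, Kcna2 and Kcnd1 were higher on the null-labelled array too, while Kcnmb4, Kcnh1, Kcnc1 and Kcnh3 were lower on their brightest probe set. Kcnab2 and Kcnd1 reached the measured level on the null-labelled array alone and Kcnc1 on the wild-type array alone, so the filter fixed their direction. Kcna2, Kcnmb4, Kcnh1 and Kcnh3 were measured on both arrays. The part of neuron and glia content in these values was not tested.

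Other channel genes were read in the same way, from lists of partner, sodium, calcium and HCN channel genes. Sodium channels, which start the action potential, had 8 of 11 genes measured, all above 0, with a median log2 ratio of 1.23. Of these, 5 were at least 2-fold higher: Scn11a (1091 and 3211) and Scn9a (2244 and 4807) of sensory neurons, Scn7a (1276 and 3469), Scn1a (348 and 892) and the beta subunit Scn4b (658 and 1931). All 4 measured probe sets of Scn9a and both of Scn7a were higher. Scn1a and Scn4b reached the measured level on the null-labelled array alone, so the filter fixed their direction. Of all measured genes 3.51% were at least 2-fold higher. Among the neuronal potassium channel subunits 1 of 14 was, Kcnab2, which also reached the measured level on that array alone. The difference between the sodium and potassium channel counts was not tested.

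Calcium channels had 12 of 24 genes measured, with a median of 0.16, or -0.09 once the median ratio of the reference genes was set to 0. Cacna1b (1061 and 2843) and Cacnb4 (501 and 1133) were at least 2-fold higher, and Cacng7 (14880.0 and 408) was lower. Cacnb4 reached the measured level on the null-labelled array alone and Cacng7 on the wild-type array alone, so the filter fixed their direction. Of all measured genes 3.51% were at least 2-fold higher and 4.22% lower. Among 14 partner genes, 7 were measured with a median of 0.48, and Kcnma1 and Amigo1, an adhesion protein that binds Kcnb channels (780.4 and 1889), were at least 2-fold higher. Both HCN pacemaker genes on the arrays were below the measured level.

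The 51 potassium channel genes below the measured level had signals of up to 655. Of these, 21 were under the floor on both arrays and have no order, 11 were above it on both, 15 on the null-labelled array alone and 4 on the wild-type array alone. Over all genes below the measured level the last 2 counts were 840 and 738. The 15 genes included Kcnq1, Kcnq3, Kcnip2 and Kcnv1 (168 and 506), a silent Kv subunit of brain, and the 4 were Kcng2, Kcnk16, Kcnn1 (472 and 220) and Kcnt2.

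Since Myf5 and MyoD bind the E-box CANNTG, that motif was counted in RefSeq promoter windows of GRCm38.p6 (250 bases before to 50 after a start), which were matched by symbol for 60 of the 79 genes in 85 windows. The motif reads the same on both strands. It was present in 63 of 85 potassium channel windows (74.1%), against 72.3% of all 32851 windows, and in 10 of 11 windows of muscle subunits. The form CAGCTG, a subset of CANNTG, was in 23 of 85 windows (27.1%), against 16.3% of all. By group, CANNTG was in 35 of 52 neuronal (67.3%) and 18 of 22 widespread windows (81.8%), and CAGCTG in 15 of 52 neuronal, 4 of 11 muscle and 4 of 22 widespread windows. Of the 5 windows, from 3 genes, of measured genes past 2-fold, 4 held CANNTG and 0 held CAGCTG. Windows of a gene can overlap, and a match is a description of the letters only. The windows of Kcnj5 and Kcnc1 are shown because these genes passed 2-fold in opposite directions and have 1 listed start each. Capitals mark CANNTG. The Kcnj5 window, on the minus strand at chr9:32344295-32344594, holds 2 such motifs. The Kcnc1 window, on the plus strand at chr7:46396218-46396517, holds 1, and CAGCTG is in neither.
Kcnj5: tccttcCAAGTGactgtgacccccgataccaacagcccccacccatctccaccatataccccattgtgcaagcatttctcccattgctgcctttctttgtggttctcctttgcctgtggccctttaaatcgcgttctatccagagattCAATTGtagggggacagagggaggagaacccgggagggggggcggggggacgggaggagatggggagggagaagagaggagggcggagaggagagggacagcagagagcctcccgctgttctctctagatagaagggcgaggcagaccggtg
Kcnc1: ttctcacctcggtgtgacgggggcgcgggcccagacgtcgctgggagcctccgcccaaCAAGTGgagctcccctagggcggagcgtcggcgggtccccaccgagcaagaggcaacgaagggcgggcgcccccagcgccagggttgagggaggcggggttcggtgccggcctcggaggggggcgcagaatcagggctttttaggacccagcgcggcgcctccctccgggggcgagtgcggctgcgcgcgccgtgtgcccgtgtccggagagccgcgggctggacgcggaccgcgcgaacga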

How the data were processed

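The authors deposited a linear intensity for each probe set, made with MAS5 (named in the submitters' processing notes without a version). RNA was 6 µg per sample, per the labels' protocols. A mean trimmed by 2% at either end was 1500.01 on both arrays. Detection calls and genome coordinates of probe sets were not used here.

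Gene names came from the platform annotation. The 79 gene identifiers all matched RefSeq (GRCm38.p6) with the same symbol. The 64 control probe sets were left out. Arrays were scaled to the median of the probe sets that reached the 50th percentile of each array (factors 0.974 and 1.03), floored, and compared as differences of log2 signals, computed from the deposited intensities.

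Named genes were all members past 2-fold, the 4 with the largest absolute ratio in each group and a short list of muscle, KCNQ and palate-related genes; other members are named with values by their role. Members, groups and lists were chosen with earlier results of these data known. Steps were tested on simulated data. Python 3.11.15, numpy 2.4.6, pandas 2.3.3 and matplotlib 3.10.9 were used.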

Additional observations from a re-analysis of the deposited data

How the results depend on the processing

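No paired analysis was possible because each genotype has 1 array, and no array could be left out. The 6 summary values were recomputed under 12 alternatives, and the 2 counts also at folds of 1.5 and 3. Setting the arrays to equal median signal of 14 reference genes gave 1 lower and 5 higher genes and medians of 0.51 (all), 0.51 (neuronal), 0.55 (muscle) and 0.33 (widespread). The median log2 ratio of the reference genes themselves was then 0.36. Setting the median ratio of these genes to 0 gave -0.0058, 0.13, -0.21 and -0.067. The widespread median was -0.0044 for signals as deposited. A floor at the 60th percentile gave 1 lower and 0 higher genes, and medians of 0.11 (all) and 0.088 (muscle). The filter at the 75th percentile left 12 genes, with 1 lower, 0 higher, and medians of 0.13 (all) and -0.47 (muscle, 3 genes). With no filter, the medians were 0.0032 (all), 0.054 (neuronal) and 0 (muscle). Without cross-hybridising probe sets the median was 0.14. At 1.5-fold 4 were lower and 11 higher, and at 3-fold 1 and 1. The cause of these shifts was not tested, beyond the fewer genes that a higher filter leaves. Kcnh3 was at least 2-fold lower in every setting run, and its mean over 4 probe sets was -1.83. Kcnc1 and Kcnj11 were within 2-fold with equal reference signal and with the floor at the 60th percentile, and Kcnc1 also with an offset of 100. Kcnj5 and Kcnab2 were at least 2-fold higher in every setting but that floor, where Kcnj5 had 0.67, and Kcnab2 0.82. The 75th percentile filter left Kcnh3 alone of these 5 genes. The number of arrays limits precision.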
